A study of Anthoceros agrestis with 2 samples.

Results

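CAG and CTG are the same site read from opposite strands: the cytosine of a CAG on one DNA strand faces, across the adenine, the cytosine of a CTG on the other. All such pairs on the 6 chromosomes of the hornwort Anthoceros agrestis were collected, and those with at least 10 reads on both cytosines that lay in 1 kb bins with a mean CG methylation level of at least 50% were described. There were 593004 of these pairs, out of 1650599 pairs with enough reads and 4918225 pairs at any depth. The level of a cytosine is the percentage of its reads that were called methylated. The strand excess is the mean, over pairs, of the CAG level minus the CTG level of the same pair, in percentage points.

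Enzymatic Methyl-seq, in which unmethylated cytosines are converted by enzymes rather than by bisulfite, had been applied to thalli, the leafless body of the haploid gametophyte. Both libraries came from wild type plants of the Oxford strain at 4 weeks of age, so that the series holds 1 group of 2 biological replicates and neither a mutant nor a treatment. The merged report, made from the joined reads of both libraries, is a single measurement, and every mean ± SD below is over the 2 replicates (n = 2), in which at least 5 reads were required on each cytosine. With 2 replicates the smallest two-sided p that an exact sign-flip test allows is 0.5, so no p across plants is given.

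In plants, methyl groups sit on cytosines followed by guanine (CG), and also on cytosines in the CHG context (H being any base but guanine) and the CHH context. CG methylation is copied onto the new strand after replication by the methyltransferase MET1. CHG methylation is kept in flowering plants by the chromomethylase CMT3, an enzyme that binds nucleosomes carrying methylated lysine 9 of histone H3, and CHG methylation is typical of silenced transposable elements. A CAG/CTG pair is a symmetric CHG site, with 1 methylatable cytosine on each strand, so both strands can be read independently at the same site.

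The pairs with methylation on mainly one strand give a view of the sites in question. The lines below hold the pairs with the most reads among those with at least 80% on one strand and below 20% on the other in the merged report and in each replicate alone. At most 27 reads per cytosine were allowed, 3 times the median depth of 9. Each line is read 5′ to 3′ along the strand of the CAG, which is in capitals, with 12 bases on either side. The bases come from the sequence contexts in the deposited reports, and n marks an adenine or thymine that these contexts do not tell apart. The first 4 were high on CAG and the last 2, the only ones in that direction, were high on CTG.
chr6:3703703-3703729 (+): catncagncaagCAGcccacttgcaan
chr1:13989919-13989945 (-): tgggnnnnncccCAGcttcggctacct
chr1:28913402-28913428 (+): gtgccagagatgCAGctccctanctcc
chr2:5704882-5704908 (+): ttgaagcataggCAGnnctttgaagct
chr4:8900955-8900981 (+): nctatggtgctaCAGgagnatgnnntt
chr2:22657979-22658005 (+): gaggaagnttggCAGcagctgcttgag
Of the 4 pairs high on CAG, 3 had a cytosine right after the CAG, and in 2 of these the bases after it read ccc or ctc. The 15 pairs that met this rule in the CAG direction and the 2 in the CTG direction were chosen for their levels, so these levels are a description.

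The pair on chromosome 6 from 3703715 to 3703717 had 17 of 19 reads methylated on CAG (89.5%, exact 95% binomial interval 66.9% to 98.7%) and 3 of 22 on CTG (13.6%, 2.91% to 34.9%). In replicate 1 the counts were 10 of 12 reads on CAG and 1 of 10 on CTG, and in replicate 2 they were 7 of 7 and 2 of 12. That CAG was the higher strand in both replicates was fixed by the choice of the pair. The intervals cover counting error only, and neither the choice of the pair nor the variation between plants.

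The pair on chromosome 1 from 28913414 to 28913416 had all 18 reads methylated on CAG and 2 of 12 on CTG (16.7%, 2.09% to 48.4%). Replicate 1 gave 12 of 12 reads against 1 of 6, and replicate 2 gave 6 of 6 against 1 of 6. The reverse case on chromosome 4, from 8900967 to 8900969, had 1 of 14 reads methylated on CAG (7.14%, 0.181% to 33.9%) and 13 of 15 on CTG (86.7%, 59.5% to 98.3%). In replicate 1 that pair had 1 of 6 reads methylated on CAG and 7 of 8 on CTG, and in replicate 2 it had 0 of 8 and 6 of 7. No gene or transposable element annotation was used here, so these pairs are placed by coordinates of the Oxford assembly alone.

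Most pairs had like levels on both strands. Both cytosines were below 20% in 24.5% of the pairs and at 80% or more in 24.3%, and both lay between these limits in 21.9%. The median level was 72.7% on CAG and 69.2% on CTG, with the middle part of the pairs (25th to 75th percentile) reaching from 18.2% to 85.7% and from 14.3% to 83.3%. The 2 levels of a pair were within 20 points of each other in 82.5% of the pairs. Across the 593004 pairs the levels of the strands, which share their bin, had r = 0.910, and r was 0.544 over the 400658 pairs in bins with a CHG level of at least 50%.

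**Figure D1:**
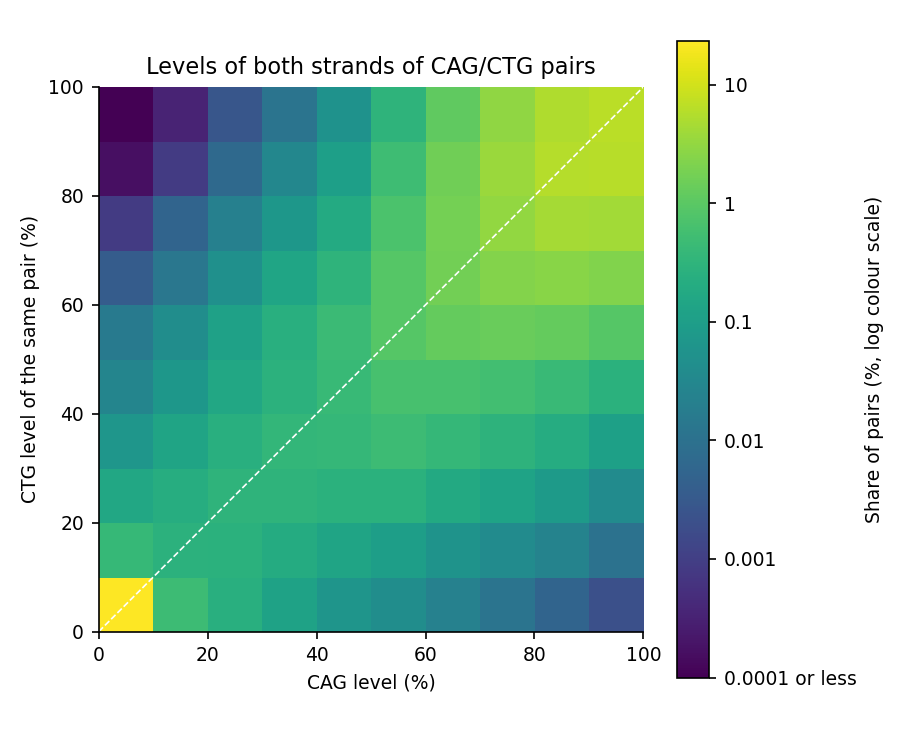
Share of the 593004 pairs (colour, log scale, in %) by the CAG level (x axis, in %) and the CTG level (y axis, in %) of the same pair in the merged report, in steps of 10 points; the dashed line marks equal levels. Pairs gather at the low end and at the high end of the line, the corner of high CTG and low CAG is the darkest, and the area below the line is brighter than the area above it.

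The levels of single pairs carried a large counting error, because the median depth of a member was 13 reads on either cytosine. The root mean square of the difference between strands was 15.5 points, of which reads alone, taken as binomial draws, would give 13.9 points. Over the 265890 pairs with at least 5 reads on both cytosines in each replicate, the difference of a pair in replicate 1 and in replicate 2 had r = 0.098. The part of the difference that both replicates shared had an SD of 6.25 points over pairs, against 19.8 and 20.1 points for the difference itself in replicates 1 and 2. The mean over many pairs was therefore the more precise quantity here, and single pairs were read only where their depth allowed.

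CAG was the more methylated strand. The mean level was 57.8% on CAG (57.8% ± 1.79, SD, n = 2) and 54.8% on CTG (54.9% ± 1.36, SD, n = 2), an excess of 2.97 points (2.96 ± 0.427, SD, n = 2). The excess was 3.26 points in replicate 1, from 606143 pairs, and 2.66 points in replicate 2, from 592758 pairs. It was about 7 times the SD between the replicates and had the same direction in both. CAG was higher in 44.0% of the pairs, CTG in 31.3%, and the levels were equal in 24.6%.

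The excess went with the sequence, whichever strand of the assembly carried it. It was 2.96 points for the 296289 pairs with CAG on the plus strand and 2.99 points for the 296715 pairs with CAG on the minus strand. The same pairs sorted by assembly strand differed by -0.0141 points (plus minus minus), by -0.00578 in replicate 1 and by 0.0128 in replicate 2. The 465272 CG dyads in the same bins, whose strands carry the same CG context, differed by 0.000699 points between plus and minus at a level of 90.4%. Sorting by assembly strand averages over the bases around a dyad, so it could not show a difference that goes with sequence. The mean depth was 14.7 reads on CAG and 14.6 on CTG.

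The excess was found along all chromosomes. Each of the 127 blocks of 1 Mb that held at least 100 pairs had a CAG level above the CTG level, from 1.67 to 4.27 points with a median of 2.82, and so had each of them in replicate 1 and in replicate 2. Among the 6444 bins of 1 kb with at least 20 pairs and a CHG level of at least 50%, CAG was higher in 89.0% in the merged report and in 65.5% in both replicates. Among the 2989 such bins with a CHG level below 10%, CAG was higher in 19.3% and CTG in 19.97%, the others being equal.

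To ask in which bins the strands parted, the pairs were sorted by the CHG level of their bin, which is the mean over all its CHG cytosines with at least 10 reads and therefore includes the pairs themselves. In bins with a CHG level below 10%, which held 128784 pairs methylated around them in CG but not in CHG, the CAG level was 0.272% and the CTG level 0.265%. The excess there was 0.00694 points (0.00667 ± 0.00537, SD, n = 2). That difference was of the size of the spread between the replicates and far below those of the higher classes.

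The excess rose with the CHG level of the bin up to the class of 60% to 70%. It was 1.15 points (1.20 ± 0.379, SD, n = 2) at a bin level of 10% to 20%, 1.46 (1.45 ± 0.0981) at 20% to 30%, and 2.17 (2.05 ± 0.363) at 30% to 40%. It went on to 2.73 points (2.67 ± 0.423) at 40% to 50%, 3.43 (3.42 ± 0.556) at 50% to 60% and 4.20 (4.15 ± 0.526) at 60% to 70%. Neighbouring classes often lay within the spread between the replicates of each other, while the ends of this series did not.

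Above that the excess levelled off. It was 4.13 points (4.12 ± 0.516, SD, n = 2) in bins of 70% to 80%, which held the most pairs (174670), and 3.88 points (4.10 ± 0.392) in bins of 80% to 90%. The topmost class, 90% to 100%, held 128 pairs with an excess of 2.65 points in the merged report, 3.79 in replicate 1 and 5.00 in replicate 2, too few to place. Bins with a CHG level of at least 50% held 67.6% of the pairs and 91.9% of the summed excess.

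**Figure D2:**
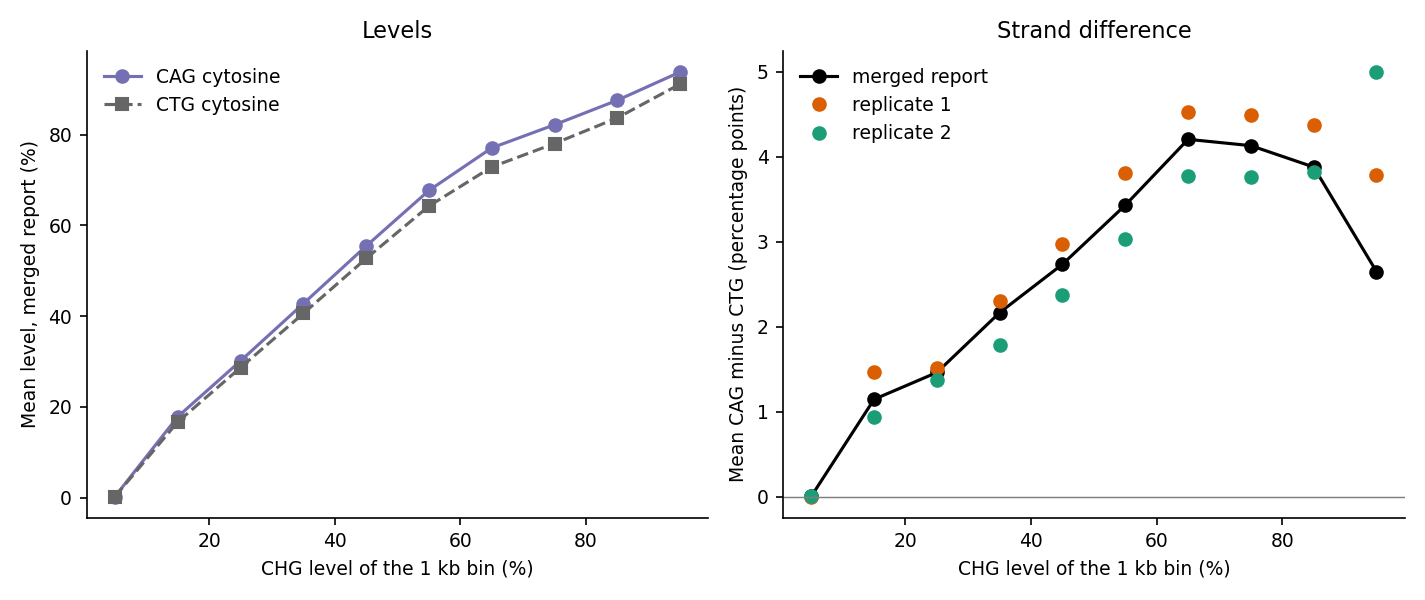
Mean level of the CAG and CTG cytosines in the merged report (left, in %) and the mean CAG minus CTG difference (right, in percentage points; black, merged report; orange and green, replicates 1 and 2) against the CHG level of the 1 kb bin, in steps of 10 points. Both strands follow the bin, and their difference goes from 0.00694 points in the lowest class to 4.20 at 60% to 70%; the last class holds 128 pairs.

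Because the bin level contains the pairs, the order was repeated with the level of CCG cytosines, the CHG context that is no part of any pair. The excess was 0.251 points (0.258 ± 0.0268, SD, n = 2) in bins with a CCG level below 10%, 3.08 (2.93 ± 0.442) at 10% to 20% and 3.93 (3.92 ± 0.477) at 20% to 30%. It stayed between 4.22 and 4.36 points in the classes from 30% to 70%. The rise was thus in the lower classes by this measure too.

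Levels on both sides of the limit on the CG level of the bin were close. The 19401 pairs just outside it, in bins of 45% to 50%, had a CAG level of 8.29% and a CTG level of 7.82%, and the 19034 pairs just inside it, in bins of 50% to 55%, had 8.59% and 8.19%. Among the members, the excess was 0.413 points at a bin CG level of 50% to 60%, 0.470 at 60% to 70%, 0.718 at 70% to 80%, 1.66 at 80% to 90% and 4.06 at 95% or more. The 817720 pairs in bins below 5% CG had a level of 0.189% on CAG and 0.189% on CTG, the background measured the same way where DNA was unmethylated.

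Chromosome 6 had the largest excess of the 6 chromosomes. It was 3.87 points there (3.81 ± 0.532, SD, n = 2), against 2.78 points (2.78 ± 0.400) over chromosomes 1 to 5 together. Chromosomes 1 and 3 had 2.81 and 2.97 points, chromosomes 2, 4 and 5 had 2.63, 2.74 and 2.79, and any pair of these values differed by less than the SD between the replicates on either chromosome. Chromosome 6 was also highest in each replicate, with 4.19 points in replicate 1 (the others 2.88 to 3.35) and 3.44 in replicate 2 (the others 2.42 to 2.64).

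Chromosome 6 also had the largest share of pairs in bins with much CHG methylation. There, 87.4% of the pairs were in bins with a CHG level of at least 50%, against 61.1% to 67.0% on the others. Within bins of one CHG class between 50% and 80% chromosome 6 was closer to the others. At a bin level of 50% to 60% it was still the highest, with 3.93 points (3.83 ± 0.710, SD, n = 2) against 3.67 (3.35 ± 0.341) on chromosome 5, a gap within the spread. At a bin level of 60% to 70% its excess was 4.28 points (4.15 ± 0.669, SD, n = 2), while chromosome 3 had 4.39 points, chromosome 1 had 4.23 and chromosome 4, the lowest, had 3.99. At 70% to 80% it was 4.16 points, between 4.00 on chromosome 2 and 4.26 on chromosome 5. In bins with a CHG level below 10% chromosome 6 stood apart at low levels (1.15% on CAG and 1.06% on CTG, 4502 pairs). Its excess there was 0.0966 points (0.102 ± 0.0119, SD, n = 2), against -0.00472 to 0.0183 on the others in the merged report.

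**Figure D3:**
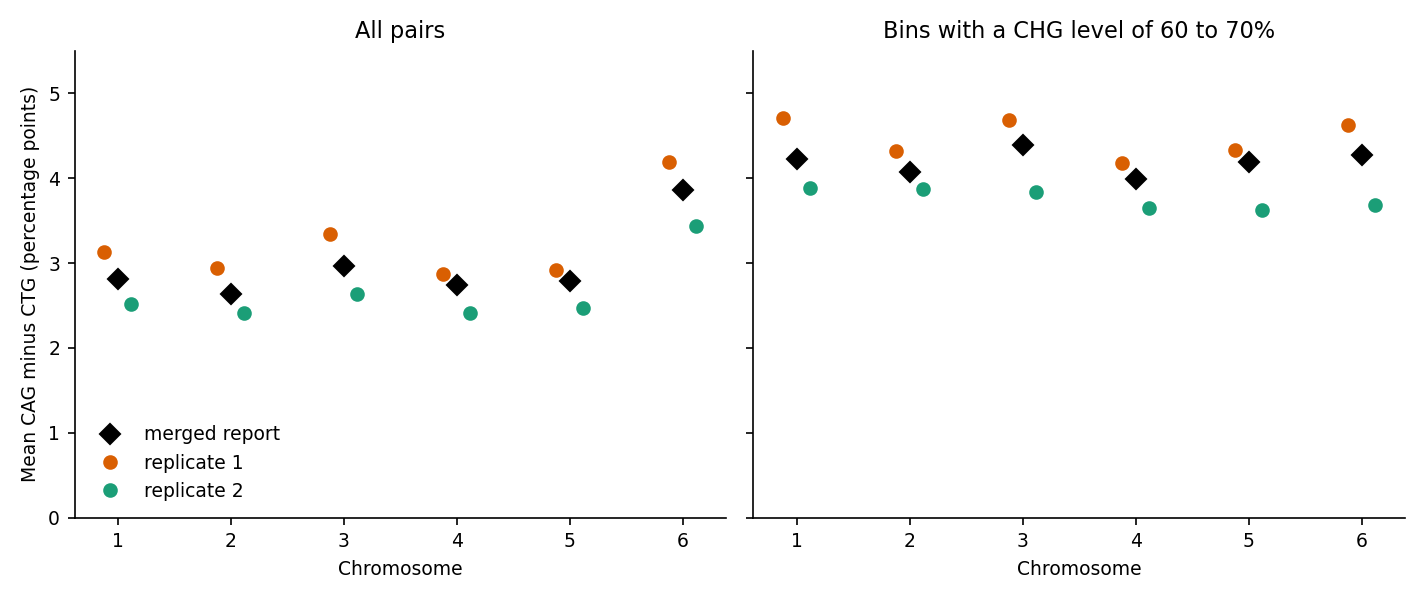
Mean CAG minus CTG difference (percentage points) by chromosome for all pairs (left) and for the pairs in bins with a CHG level of 60% to 70% (right); black diamonds, merged report; orange and green, replicates 1 and 2. Chromosome 6 lies above the others on the left (3.87 points) and among them on the right (4.28 points).

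The excess varied more with the bases around the pair, from 0.420 to 8.41 points, than with the chromosome or the CHG level of the bin. The base before and the base after the CAG, read on its own strand, were C, G, or one of A and T, which gives 9 classes. The excess was 8.41 points (8.39 ± 1.35, SD, n = 2) with C on both sides, 5.64 (5.70 ± 0.959) with G before and C after, and 3.67 (3.70 ± 0.771) with A or T before and C after. With A or T after the CAG it was 4.19 points (4.12 ± 0.679) when C came before, 2.72 (2.67 ± 0.128) when G did and 1.50 (1.52 ± 0.160) when A or T did.

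With G after the CAG the strands were nearly equal. The excess was then 1.49 points (1.42 ± 0.207, SD, n = 2) after C, 0.857 (0.858 ± 0.0864) after G and 0.420 (0.381 ± 0.0204) after A or T. Within each base before the CAG the order of the bases after it was the same, C above A or T above G, in the merged report and in both replicates. The 184278 pairs followed by C were 31.1% of all and carried 56.4% of the summed excess, and the 146915 pairs followed by G were 24.8% and carried 6.73%.

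Position by position, the excess varied most with the bases that follow the CAG. In the 400658 pairs of bins with a CHG level of at least 50%, where the mean excess was 4.05 points (4.03 ± 0.523, SD, n = 2), the cytosine of the CAG was counted as position 0. At position 3, right after the CAG, C went with 7.46 points (7.48 ± 1.21), A or T with 3.36 (3.33 ± 0.317) and G with 1.02 (1.00 ± 0.0154). At position 5 the excess was 6.92 points (6.92 ± 0.853) with C, 3.89 with A or T and 1.77 with G.

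A guanine anywhere from position 3 to 6 went with a low excess. It was 1.47 points at position 4 and 1.99 at position 6, and it was 3.22 at position 7. On the near side, C at position -1 went with 6.58 points (6.47 ± 0.962, SD, n = 2) and A or T there with 2.59 (2.58 ± 0.376). From position 8 on, and from position -5 back, the 3 base classes differed by at most 0.631 points.

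**Figure D4:**
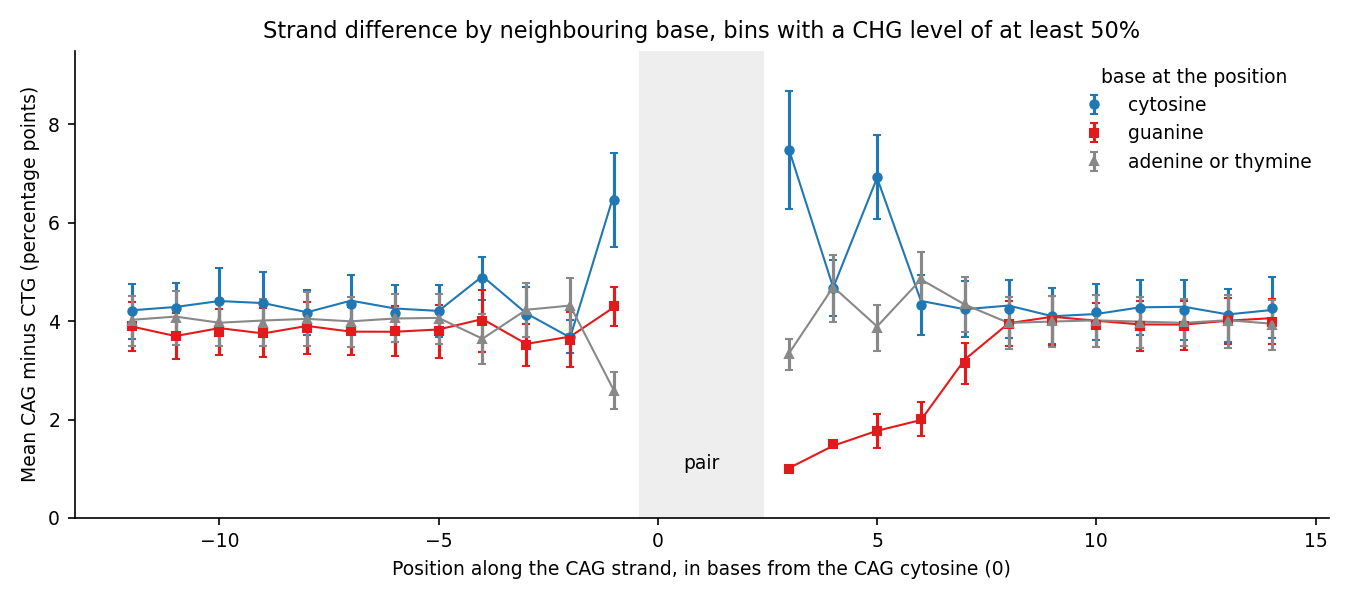
Mean CAG minus CTG difference (percentage points) of the 400658 pairs in bins with a CHG level of at least 50% by the base at each position along the CAG strand, counted from the CAG cytosine at 0; lines, merged report; points and bars, mean ± SD of the 2 replicates; the shaded band is the pair itself. Cytosine stands highest at positions -1, 3 and 5 (6.58, 7.46 and 6.92 points), guanine stays low from 3 to 6, and the classes meet farther out.

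When C follows the CAG, the reports resolve the next 2 bases completely, and the pairs fall into 16 classes of 6 bases. This split was made after the values of the single positions had been seen, and its values are a description. In bins with a CHG level of at least 50% the excess was 25.5 points (25.4 ± 1.78, SD, n = 2) at CAGCCC, 18.5 (18.5 ± 2.19) at CAGCTC, 15.2 (15.3 ± 1.32) at CAGCCT and 12.4 (12.3 ± 1.60) at CAGCTT. These are the 4 classes with pyrimidines at both positions, and each lay above the other 12 in both replicates.

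The other 12 classes were between -0.241 and 6.67 points. Those just below the first 4 were CAGCTG with 6.67 points (6.72 ± 1.73, SD, n = 2), CAGCAC with 6.53, CAGCAT with 6.26 and CAGCAA with 5.98, which did not differ beyond their spread. The lowest were the 4 classes in which the C after the CAG belongs to a CG site, from CAGCGT with 1.97 points down to CAGCGG with -0.241 (-0.396 ± 0.688), together with CAGCCG and with CAGCAG at 1.66 points. CAGCTG reads the same on both strands and holds a pair at either end, so 17508 of its 18452 pairs shared their 6 bases with another member and are not independent of it.

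The gap at these sites came from a low CTG strand more than from a high CAG strand. At the 6316 CAGCCC pairs the CAG level was 60.8% and the CTG level 35.3%, and at the 8317 CAGCTC pairs they were 68.7% and 50.2%. At the 275677 pairs not followed by C, the levels were 82.6% on CAG and 80.1% on CTG. Both strands were thus lower where C followed, and the CTG strand, which there reads GGGCTG or GAGCTG, was the lower one. The mean depth at CAGCCC was 15.7 reads on CAG and 15.9 on CTG.

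With CAGCCC and CAGCTC joined, the 14633 pairs in these bins had an excess of 22.9 points in replicate 1 and 20.1 in replicate 2. CAG was higher by at least 20 points in 53.3% of them and CTG in 2.02%. Among the 275677 pairs without a following C these shares were 13.1% and 7.34%. The excess of the joined class was 26.8 points (27.2 ± 2.94, SD, n = 2) where C preceded it, 21.7 (21.7 ± 1.69) where G did and 18.4 (18.2 ± 1.48) where A or T did. It was much the same on every chromosome, from 20.9 points on chromosome 3 to 22.5 on chromosome 4, with 21.4 on chromosome 6.

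Over all members the joined class was 3.60% of the pairs and carried 19.1% of the summed excess. The excess did not rest on it or on the following C alone, as the 408726 pairs not followed by C had 1.88 points (1.85 ± 0.179, SD, n = 2).

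Pairs with methylation on one strand only were rare. With at least 80% on one strand and below 20% on the other, 267 of the 421429 pairs that reached 50% on either strand were one-sided, or 0.0634%. Of these, 259 were high on CAG and 8 on CTG. At the looser bound of a difference of at least 50 points, 4103 pairs were higher on CAG and 574 on CTG. The same one-sided limits held for 58 of 441755 CG dyads in these bins, or 0.0131%.

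The sequence around the one-sided pairs high on CAG is given as a description. These pairs are the extreme of the same differences by which the sequence classes stood out. Classes with a large excess were therefore bound to be frequent among them. C followed the CAG in 208 of the 259 (80.3%), and 132 (50.97%) were CAGCCC or CAGCTC, against 28.3% and 3.01% of all pairs at 50% or more on either strand. C preceded the CAG in 120 (46.3%, against 23.5%). All 132 one-sided pairs at these 6 bases were high on CAG. Of the 8 that were high on CTG, 1 was followed by C, and 4 were followed by A or T and 3 by G.

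They were spread over the genome. Chromosomes 1 to 6 held 71, 37, 28, 38, 36 and 49 of those high on CAG, in that order. With both directions joined, one-sided pairs were 0.0739%, 0.0526%, 0.0442%, 0.0809%, 0.0898% and 0.0539% of the pairs at 50% or more on either strand. Of the 259 high on CAG, 129 had the CAG on the plus strand and 130 on the minus strand. Bins with a CHG level of at least 50% held 239 of the 259, much as they held 386154 of the 421429 pairs at 50% or more on either strand. In 257 bins there was 1 one-sided pair, and 5 bins held 2. The median depth of the 259 was 11 reads on CAG and 12 on CTG, against 13 on both for all pairs at 50% or more.

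The surroundings of one-sided pairs were methylated on both strands. Within 100 bp of the 259, neighbouring pairs had a mean level of 74.7%, with the strand of the high cytosine 12.6 points above the other. Neighbouring CG dyads had a mean level of 95.1% with a difference of 2.42 points. Around the 8 pairs high on CTG, the 33 neighbouring pairs had a mean level of 65.7% and a difference of 28.3 points. The 26 CG dyads there had 95.6% and 1.62 points. Neighbours on a strand are read by the same reads, so these are not separate measurements. Over all pairs of bins with a CHG level of at least 50%, the differences of adjacent pairs 3 to 10 bp apart had r = 0.0226 and their mean levels r = 0.304 (125829 neighbours, which share reads).

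Shallow pairs made up most of the one-sided ones. Of the 267, 231 had 10 to 12 reads on their shallower strand, 34 had 13 to 19, and 2 had 20 or more, although this last group held 22828 pairs at 50% or more. The share thus went from 0.0796% to 0.00876% between the shallowest and the deepest group. The excess went the other way, from 2.88 points (10 to 12 reads) through 3.04 to 4.09 points (20 or more), where the levels of both strands were higher too.

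Pairs chosen in one replicate were then looked up in the other, which had no part in the choice. In replicate 1, 17 pairs with at least 10 reads were one-sided and high on CAG, and 16 had at least 5 reads in replicate 2. There CAG was higher in 10, with a median difference of 29.0 points, and 2 were again one-sided. In replicate 2, 13 pairs were chosen and 12 could be looked up, all 12 with a higher CAG level in replicate 1, a median difference of 35.9 points, and 1 again one-sided.

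For comparison, of all 24973 pairs at 50% or more in replicate 1 that could be looked up in replicate 2, CAG was higher in 14106 and CTG in 10039, with a median difference of 3.17 points. Of all 22453 such pairs of replicate 2, CAG was higher in replicate 1 in 13054 and CTG in 8599, with a median difference of 3.74 points. Of the pairs chosen for a high CTG, 2 in replicate 1 and 3 in replicate 2, 4 could be looked up and 3 kept a higher CTG. The full one-sided state recurred in 3 of the 28 pairs high on CAG.

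**Figure D5:**
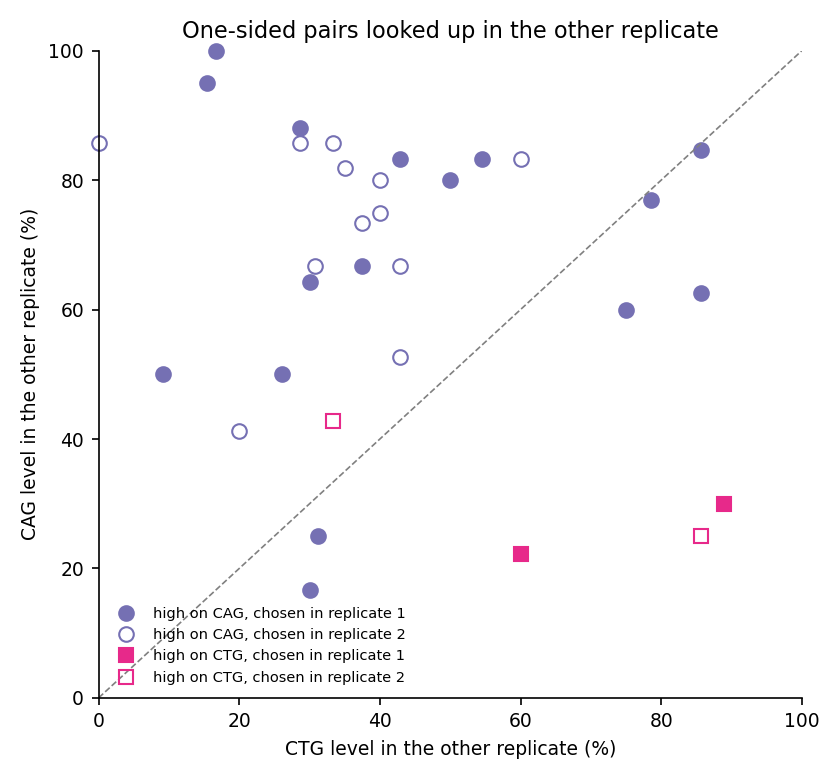
CAG level (y axis, in %) against CTG level (x axis, in %) in the replicate that did not choose them, for 32 look-ups. The pairs were one-sided at 10 or more reads in the replicate that chose them. Circles mark pairs chosen for a high CAG, and squares those chosen for a high CTG. Filled symbols were chosen in replicate 1, and open ones in replicate 2. The pair chosen in both replicates is shown in both directions. The dashed line marks equal levels. Of the circles, 22 lie above the line and 6 below it, and most have a CTG level above the limit of 20%.

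A test of each pair on its own reads found few. Fisher's exact test (two-sided) compared the methylated and unmethylated reads of the CAG and the CTG cytosine, with Benjamini-Hochberg adjustment over all 1650599 pairs. It compares the reads of these libraries and not plants. At an adjusted p below 0.05 it called 83 pairs, or 0.00503% of those tested, 76 with CAG higher (0.0046%) and 7 with CTG higher (0.000424%). All 83 were members, which is 0.0140% of the 593004.

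The called pairs were the deep ones. Their median depth on the shallower strand was 107 reads, against 11 over all members, and 76 of the 83 had more than 27 reads on a strand. Among the pairs with at most 27 reads on both strands, tested alone, no pair passed. Of 566806 such members, 15613 had an unadjusted p below 0.05. The share that would pass at these depths where strands do not differ was not determined, so this count does not tell whether single pairs differ. At 10 reads on each strand the smallest p possible was 1.08e-05, and the largest p called was 2.46e-06. The depth of 524425 members (88.4%) would have allowed a p that small, but only counting the most extreme split of their reads. Smaller differences need more reads, so this count does not show how far depth limited the calls. Whether the deep pairs stand for sites whose reads come from several copies of a repeat was not tested.

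The direction of the 83 held in each replicate: all 83 pairs with at least 5 reads in replicate 1 and all 82 in replicate 2 had the higher strand of the merged report, of which both replicates are part. Of the 76 with CAG higher, 57 were followed by C and 43 were CAGCCC or CAGCTC, and 1 of the 7 with CTG higher was followed by C. Over all members, 31.1% were followed by C and 3.60% were CAGCCC or CAGCTC. The shares among equally deep pairs were not determined, and these classes were seen in the same differences that the test uses. The median size of the difference was 35.1 points, and 6 of the 83 were one-sided by the limits above. Unadjusted p-values below 0.05 were found with CAG higher in 2.45% of the members and with CTG higher in 0.605%. The shares that would pass this threshold without a difference at single pairs were not determined, so only their direction is described.

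A few bins departed from the mean in either direction. Among bins with at least 20 pairs and one sign in both replicates, the bin on chromosome 6 from 3703001 to 3704000 had the largest excess, 22.6 points over 25 pairs (76.4% on CAG and 53.8% on CTG), with 25.2 points in replicate 1 and 22.0 in replicate 2. It holds the first of the pairs printed above, and 13 of its 25 pairs were followed by C. Next came the bin on chromosome 2 from 20964001 to 20965000, with 21.9 points over 21 pairs (22.2 and 18.2 in replicates 1 and 2). The bin on chromosome 1 from 19916001 to 19917000 had 20.1 points over 47 pairs (21.4 and 6.70).

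In the other direction the bin on chromosome 3 from 1952001 to 1953000 had -21.7 points over 21 pairs, with 57.1% on CAG and 78.9% on CTG (-11.4 points in replicate 1 and -19.4 in replicate 2). It had 12 pairs followed by C, none of them CAGCCC or CAGCTC. The other lowest bins had -10.7 points over 23 pairs (chromosome 1, from 15743001 to 15744000) and -9.50 points over 22 pairs (chromosome 2, from 25152001 to 25153000). The CG level of these 3 bins was between 94.7% and 97.5%, so they were as methylated in CG as most members. The 3 bins with the largest excess, in the order given above, had CG levels of 71.5%, 94.5% and 63.3%.

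Of the 5 bins with 2 one-sided pairs, the first 3 by position were on chromosome 1 from 29121001 to 29122000 and on chromosome 4 from 8900001 to 8901000 and from 15070001 to 15071000. The bin at 8900001 on chromosome 4 was unlike the rest, since both of its 2 pairs were high on CTG, with means of 10.2% on CAG and 85.0% on CTG. In replicate 1 its means were 16.7% and 79.5% over 2 pairs, and in replicate 2 they were 28.7% and 51.7% over 7 pairs.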

How the data were processed

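Genomic DNA from 4-week-old wild type thalli of the Oxford strain (2 biological replicates) had been made into Enzymatic Methyl-seq libraries. The authors merged the reads of both replicates, trimmed them with Trim Galore, mapped them to the Oxford assembly with Bismark 0.22.2 and Bowtie2, removed duplicates and extracted calls, using SAMtools 1.9 and BEDTools 2.27.1 on the way. The deposited reports hold raw counts of methylated and unmethylated reads per cytosine, without normalization, for replicate 1, replicate 2 and the merged reads. They sum to 323429467, 325691541 and 648374160 calls, with a median of 4, 4 and 9 reads per cytosine on the 6 chromosomes. Merging before mapping means that the merged depth differed from the sum of the replicates at 0.628% of the pairs.

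A plus-strand CAG or CTG at a position was paired with the minus-strand cytosine 2 bases on. At least 10 reads (5 in a replicate) were required on both. Bin levels are means over cytosines with at least 10 merged reads, and a bin needed at least 5 CG sites. Classes by CHG or CCG level needed at least 5 such sites. Bases were read from the trinucleotide contexts, and 15.7% of the bases around members remained unresolved between A and T. Fisher's exact test was adjusted over all pairs of the chromosomes. Reports were read with PyArrow 21.0.0 and pandas 2.3.3, computed on in Python 3.11.15 with Numba 0.67.0 and NumPy 2.4.6, checked with SciPy 1.17.1 and plotted with Matplotlib 3.10.9. The base reading and the test were checked on simulated data. The alternatives were the read minimum, a depth limit of 27 reads, the sum of the replicate reports, the CG limit and number of CG sites of a bin, bins of 500 bp and 2 kb, pooled reads, means over bins, other one-sided limits, other adjustments, CCG in place of CHG, and each replicate alone.

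Named were, per direction, the 4 one-sided pairs with the most reads (one-sided in both replicates, at most 27 reads per cytosine), the 3 highest and 3 lowest bins with at least 20 pairs, and 3 bins with the most one-sided pairs. The members, limits and classes were chosen with earlier results of these data known. Sequence and pairs outside the 6 chromosomes and the gene and transposable element annotation were not used here.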

Additional observations from a re-analysis of the deposited data

How the results depend on the processing

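The excess stayed above 0 in 330 of the 331 comparisons made with it. The exception was the class of bins with a CHG level below 10%, where a minimum of 20 reads gave -0.227 points in place of 0.00694. The excess over all members was 4.09 points with a minimum of 20 reads and 3.69 with a bin CG level of at least 80%, and 2.66 to 3.26 with one replicate alone. Alternatives chosen after seeing the data gave 1.88 points without the pairs followed by C and 4.05 points in bins with a CHG level of at least 50% only. The one-sided share depended on the depth and the limits: it was 0.151% with a minimum of 5 reads, 0.00876% with 20, 0.0660% with at most 27 reads, 0.381% to 0.382% with one replicate alone, 0.00285% with limits of 90% and 10%, 0.538% with 70% and 30%, and 0.0192% without the pairs followed by C. The number of called pairs was 254 with a minimum of 20 reads, where fewer pairs were tested, 0 with at most 27 reads, 39 with Bonferroni adjustment, and 8 to 23 with one replicate alone. In all, 298 of 405 values moved by less than the SD between the replicates or, for counts, by under 1.5 times. No paired analysis was possible because the series holds a single group and no other to pair it with, and CAG and CTG were compared within each pair and each replicate throughout. With 2 replicates, SDs are rough, and a pair with 10 reads can take few levels, so single pairs at this depth give only a coarse difference.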

Other observations

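Outside the members, the same order of sequence classes was seen at low levels. In the 237817 pairs of bins with a CG level of 5% to below 50%, the CAG level was 4.67% and the CTG level 4.44%, an excess of 0.228 points (0.226 ± 0.0382, SD, n = 2). At the 8054 of these pairs that read CAGCCC or CAGCTC the levels were 3.25% and 2.16%, an excess of 1.09 points, with 1.24 in replicate 1 and 0.979 in replicate 2. At the 62800 other pairs followed by C it was 0.286 points, and at the 166963 pairs not followed by C it was 0.165 points. These classes were looked at after the values of the members had been seen.

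Within CAGCCC, the base before the CAG went with further differences. In bins with a CHG level of at least 50% the 1392 pairs preceded by C had a CAG level of 60.6% and a CTG level of 29.2%, the 2046 preceded by G had 54.4% and 30.1%, and the 2878 preceded by A or T had 65.4% and 41.9%. Of the 1392, 72.6% had a CAG level at least 20 points above the CTG level and 0.575% the reverse. This class, too, was chosen after its values were seen.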
